A study of Mus musculus with 12 samples.

Results

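miR-143 and miR-145 are a pair of microRNAs (miRNAs) from 1 locus of mouse chromosome 18. They were taken as the probes named mmu-miR-143 and mmu-miR-145 on the array, which gave 2 of the 417 probes for mouse miRNAs. In the RefSeq annotation of assembly GRCm38.p6 both precursor genes, Mir143 and Mir145a, lie within the span of the long non-coding RNA gene Carmn. The question taken up here is how far each of the neighbours changed with rapamycin, and whether they changed by the same amount.

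The cells were BC3H1, derived from a brain tumour of a mouse and able to take on muscle traits, grown in DMEM with 20% fetal bovine serum. Rapamycin inhibits the mTOR complex 1 kinase, a regulator of growth and protein synthesis. RS_DMSO is the rapamycin-sensitive (RS) line given the solvent DMSO for 24 h, RS_Rap is the same line given 100 nM rapamycin for 24 h, and RR_Rap is the resistant line RR1, obtained by growing BC3H1 cells in 1 µM rapamycin for 6 months and held in that dose throughout. Each group has 4 arrays, 12 in all, and arrays are written with the replicate number of the labels, as in RR_Rap 2. RR1 is the sole resistant line, and no resistant cells without drug were measured, so the line, the dose and the length of exposure cannot be told apart. The labels do not say whether the 4 samples of a group were grown apart, so each p-value reflects the variation among these samples alone and that variation may be technical.

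As background, a miRNA is a short RNA that lowers the output of messenger RNAs that pair with its seed, bases 2 to 8. miR-143 and miR-145 are made from 1 primary transcript that serum response factor and its partner myocardin switch on, and both are abundant in differentiated smooth muscle. In smooth muscle miR-145 represses Klf4 and Klf5, transcription factors that hold the cells in a dividing state, and miR-143 represses Elk1, a growth-responsive partner of serum response factor. Each arm is processed and degraded on its own, so mature products of 1 transcript can differ in level.

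Each sample was labelled with the dye Hy3 and hybridised together with a common RNA pool labelled with Hy5 to Exiqon miRCURY LNA arrays, with no dye swap. A value written as a log2 ratio is Hy3 over Hy5 after background correction and an intensity-dependent (loess) normalization within the array, averaged over the 4 spots of the probe. The pool is given in one place as a mixture of the 3 conditions and in another as made from 9 samples, and a ratio is a level relative to that mixture, not an amount. In bulk RNA, fewer cells that make a miRNA and less of it in each cell cannot be told apart. The arrays of each group were scanned as 1 unbroken run, so scan order and group cannot be told apart. RS_DMSO 3 stood apart, with a correlation of 0.574 to 0.709 with the other RS_DMSO arrays over all mouse probes, against 0.828 to 0.874 among those.

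The pair differed in brightness before any group was compared. The raw Hy3 signal of miR-143 was 2148, 1746, 1026 and 1936 on RS_DMSO 1 to 4. It was 2518, 2428, 2753 and 2827 on RS_Rap 1 to 4, and 541, 222.5, 566 and 519 on RR_Rap 1 to 4. On 12 of 12 arrays miR-143 was brighter than each of the 7 negative-control probes.

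miR-145 was dim in every group. Its raw Hy3 signal was 156, 136.3, 129 and 149 on RS_DMSO 1 to 4, 129, 133.9, 159 and 163 on RS_Rap 1 to 4, and 116, 124, 123 and 120 on RR_Rap 1 to 4. The median negative control lay between 105.9 and 124 on the same arrays. miR-145 passed the highest negative control on 1 of 4 RS_DMSO arrays, on 4 of 4 RS_Rap arrays and on 0 of 4 RR_Rap arrays, so in the resistant line its signal was not distinguished from that of probes with no target. The scanner software's own flag called all spots of both probes well above background in Hy3 on 12 of 12 arrays.

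In the pool channel, the Hy5 signal of miR-143 was 549 to 1908 over the 12 arrays, while that of miR-145 was 77.5 to 107, beside a local background of 77.0 to 100.5. The log2 ratio of miR-145 therefore sets a weak Hy3 signal over a Hy5 signal near background. After background correction the Hy3 signal stood above the median negative control, on the log2 scale, by 3.85 ± 0.64 in RS_DMSO, 4.73 ± 0.08 in RS_Rap and 1.98 ± 0.65 in RR_Rap for miR-143 (SD, n = 4). For miR-145 the same distance was 0.33 ± 0.13, 0.46 ± 0.16 and 0.09 ± 0.03 (SD, n = 4), so a fall of miR-145 as large as that of miR-143 could not have been read from this probe.

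**Figure D1:**
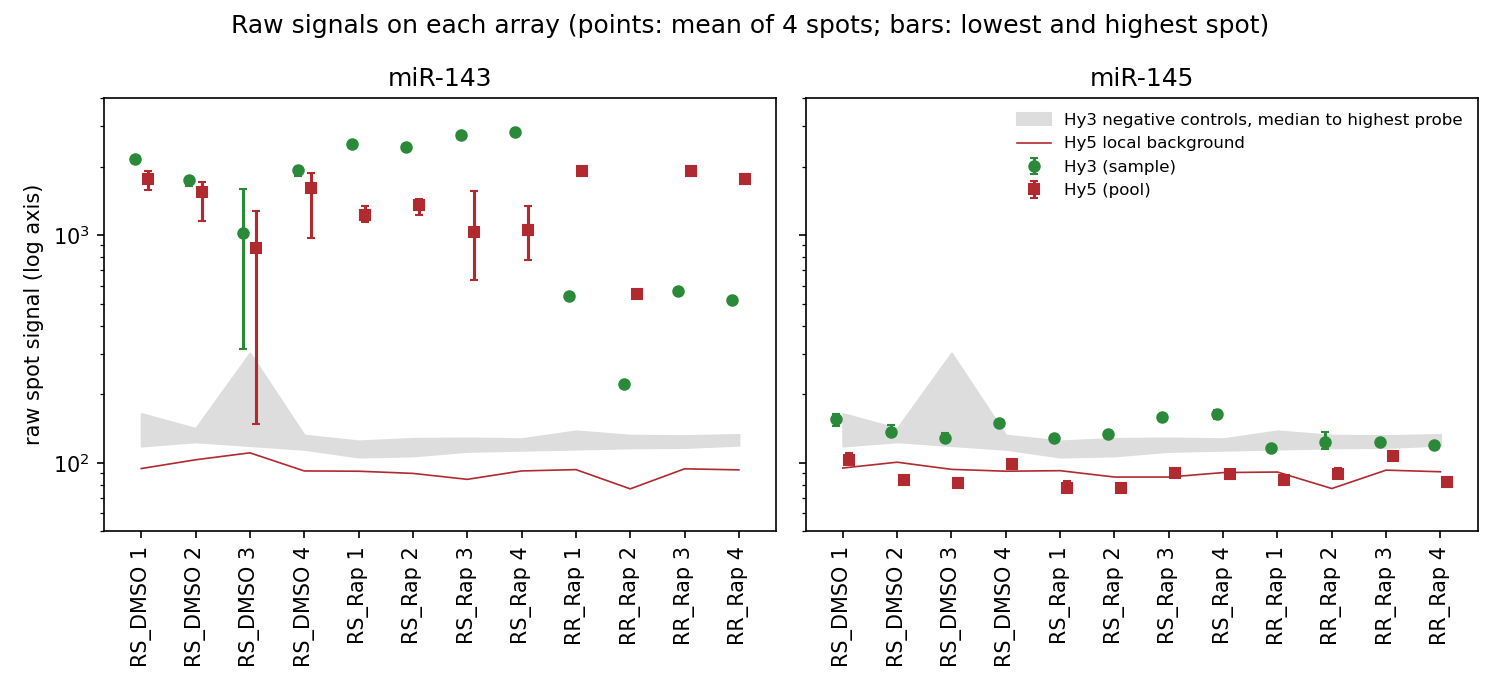
Raw Hy3 (sample) and Hy5 (pool) signals of miR-143 and miR-145 on the 12 arrays, on a log axis; points are means of 4 spots, bars the lowest and highest spot, and the grey band runs from the median to the highest negative-control probe. miR-143 lies above the band on all arrays, while miR-145 lies within or just above it, and on RR_Rap arrays inside it.

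miR-143 was 4.05-fold lower in the resistant line than in DMSO-treated sensitive cells and 4.90-fold lower than in sensitive cells given rapamycin for 24 h. Its log2 ratio was 0.60, 0.71, 0.42 and 0.72 on RS_DMSO 1 to 4, which gives 0.61 ± 0.14 (SD, n = 4). It was -1.49, -1.10, -1.50 and -1.52 on RR_Rap 1 to 4, which gives -1.40 ± 0.20 (SD, n = 4). Every resistant array lay below every DMSO array, as for 25.4% of all probes in one direction or the other.

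The log2 change of miR-143 from RS_DMSO to RR_Rap was -2.02 with a standard error of 0.14 (95% interval -2.33 to -1.71), a 4.05-fold lower ratio, with an adjusted p of 4.55e-07 in limma. It was the lowest of the 417 changes, and 2 probes, both higher in the resistant line, changed by more. Of all probes, 23.3% were called in this comparison, 10.3% lower and 12.9% higher. The raw Hy3 signal of miR-143 fell from a mean of 1714 to 462 (exact permutation test over arrays, two-sided, p = 0.0286, the smallest p that 4 against 4 arrays allow, and 0.0286 adjusted over the 3 comparisons), whereas its Hy5 signal had means of 1448 and 1531 (exact p = 0.743).

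miR-145 had a slightly lower log2 ratio in the resistant line, in a probe that could show little more than that. Its log2 ratio was -0.05, 0.07, 0.04 and 0.15 on RS_DMSO 1 to 4, which gives 0.05 ± 0.08 (SD, n = 4). It was -0.16, -0.11, -0.19 and -0.14 on RR_Rap 1 to 4, which gives -0.15 ± 0.03 (SD, n = 4). The groups did not overlap, and RS_DMSO 1 was the DMSO array nearest to the resistant ones.

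The log2 change of miR-145 was -0.20 with a standard error of 0.06 (95% interval -0.33 to -0.07), a 1.15-fold lower ratio, with an adjusted p of 0.0273 in limma, the 50th lowest of the 417 changes. This call depended on the processing: without loess the change was -0.07 (adjusted p = 0.548), and 5 of the 12 fits that left out 1 array lost it, with adjusted p between 0.0568 and 0.0742. Those 5 fits left out RS_DMSO 2, RS_DMSO 4, RR_Rap 1, RR_Rap 3 or RR_Rap 4. Without RS_DMSO 3, the array that stood apart, the changes were -2.08 for miR-143 and -0.21 for miR-145, both still called.

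Against sensitive cells given the drug for 24 h, the resistant line was again lower in both miRNAs. The log2 ratio of miR-143 on RS_Rap 1 to 4 was 0.72, 0.55, 1.21 and 1.07, with a mean of 0.89 ± 0.30 (SD, n = 4), and that of miR-145 was 0.04, 0.04, 0.23 and 0.26, with a mean of 0.14 ± 0.12 (SD, n = 4). For each miRNA all 4 resistant arrays lay below all 4 RS_Rap arrays, as 39.8% of all probes did not overlap in this comparison. The log2 change was -2.29 with a standard error of 0.14 for miR-143, a 4.90-fold lower ratio (adjusted p = 1.21e-07 in limma).

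For miR-145 the log2 change from RS_Rap to RR_Rap was -0.29 with a standard error of 0.06, a 1.23-fold lower ratio (adjusted p = 0.00281 in limma). Here 28.8% of all probes were called, 13.7% lower and 15.1% higher. Both calls held in each of the 12 fits that left out 1 array, where miR-143 ran from -2.41 to -2.19 and miR-145 from -0.33 to -0.25. The comparisons of RR_Rap with RS_DMSO and with RS_Rap share the resistant arrays and are not independent of each other.

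**Figure D2:**
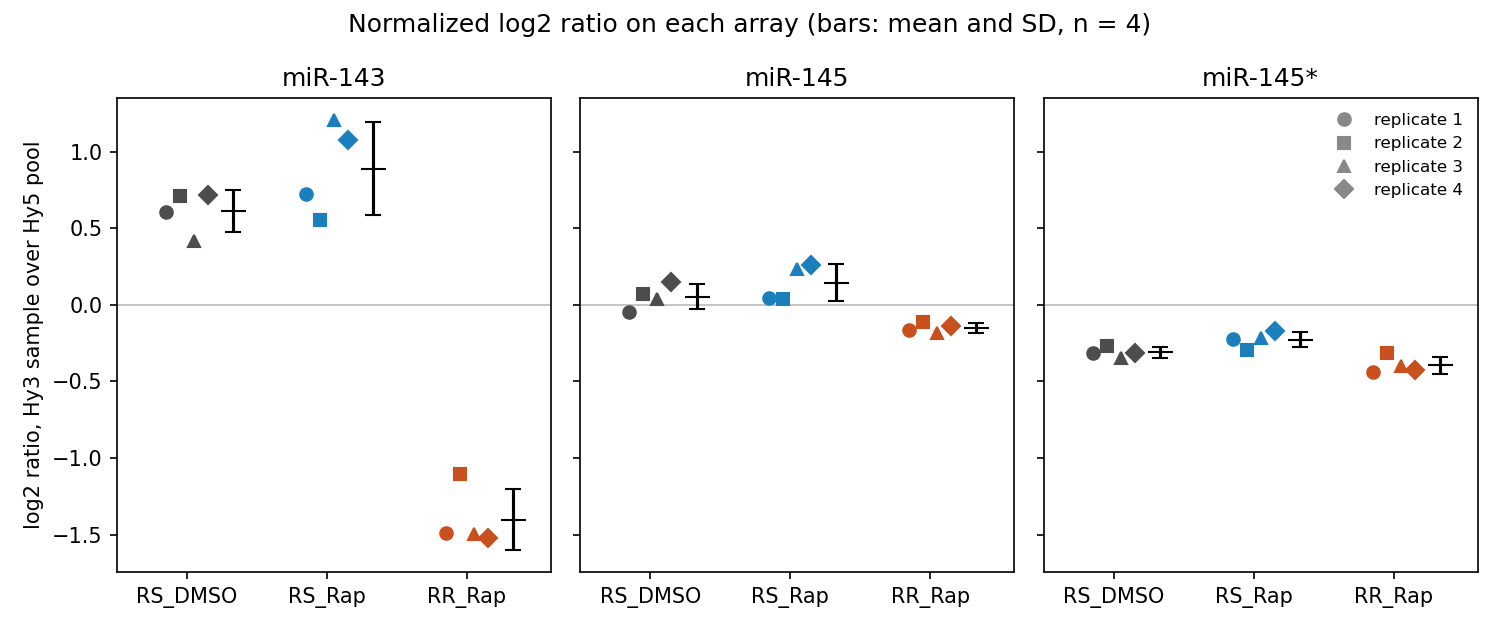
Normalized log2 ratio of miR-143, miR-145 and miR-145* on each of the 12 arrays, with the mean and SD of each group (n = 4). The 4 RR_Rap arrays of miR-143 lie between -1.52 and -1.10, below all sensitive arrays, while the 3 groups of miR-145 lie within -0.19 to 0.26.

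After 24 h of rapamycin in sensitive cells neither miRNA passed the test. The log2 ratios of RS_Rap and RS_DMSO overlapped for both miRNAs. For miR-143 RS_Rap 1, RS_Rap 3 and RS_Rap 4 were higher than every DMSO array, RS_Rap 1 narrowly, and for miR-145 RS_Rap 3 and RS_Rap 4 were. The log2 change was 0.28 with a standard error of 0.14 for miR-143 (95% interval -0.04 to 0.59, adjusted p = 0.261 and unadjusted p = 0.0769 in limma) and 0.09 with a standard error of 0.06 for miR-145 (95% interval -0.04 to 0.22, adjusted p = 0.352 and unadjusted p = 0.158). In this comparison 14 of the 417 probes, or 3.36%, were called, 1.68% higher and 1.68% lower, and 14.9% of the probes did not overlap. The intervals leave room for a rise of up to 1.5-fold in miR-143 and 1.17-fold in miR-145.

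The outcome for miR-143 at 24 h turned on the normalization. Its mean log2 ratio was 0.61 in RS_DMSO and 0.89 in RS_Rap after loess, but 0.29 and 1.21 before it. Without loess the ratios ran from 0.20 to 0.38 in RS_DMSO and from 0.84 to 1.49 in RS_Rap, with no overlap, and the change was 0.92 (adjusted p = 0.000188 in limma). Of all 417 probes 28.3% were called without loess, 117 higher and 1 lower. The share of probes without overlap was not counted there. In the deposited value table, whose values followed the ratios before loess, the change was 0.90 (adjusted p = 0.000751 in limma), beside 26.6% of all probes called.

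In the sample channel alone, the raw Hy3 signal of miR-143 was 1.54-fold higher in RS_Rap, with no overlap (exact permutation test, two-sided, p = 0.0286, the same adjusted over 3 comparisons). This was not particular to miR-143. The mean Hy3 signal went from 3231 in RS_DMSO to 5090 in RS_Rap for miR-21 and from 2966 to 4594 for miR-24. For the dimmer miR-221 it went from 268 to 244. How many of all probes were brighter was not counted. After quantile normalization between arrays the Hy3 change was 0.39 on the log2 scale (adjusted p = 0.335 in limma). Whether miR-143 rose within 24 h of rapamycin was thus not settled, while its lower level in the resistant line was called with and without loess, at -2.02 and -1.96 against RS_DMSO.

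The Hy5 spots of miR-143 were unequal on RS_Rap 3 and RS_Rap 4, the RS_Rap arrays with its highest ratios. On RS_Rap 3 the 4 Hy5 spots ran from 635 to 1559 while the Hy3 spots ran from 2682 to 2837, and on RS_Rap 4 the Hy5 spots ran from 780 to 1341. The coefficient of variation of the Hy5 spots was 38.3% and 23.6% on these arrays, against a median of 7.59% and 12.9% over the probes with a Hy5 signal above 500. On the resistant arrays it was 1.15% to 3.42%. Among RS_DMSO arrays it ran from 9.51% to 57.7%, the highest on RS_DMSO 3, where 1 spot was dim in both channels. With the median over spots in place of the mean, an alternative chosen after seeing the data, the 24 h change of miR-143 was 0.36 (adjusted p = 0.135 in limma). The ratios of miR-143 on RS_Rap 1 to 4 were then 0.76, 0.52, 1.24 and 1.08, so their spread remained. The source of that spread was not tested.

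**Figure D3:**
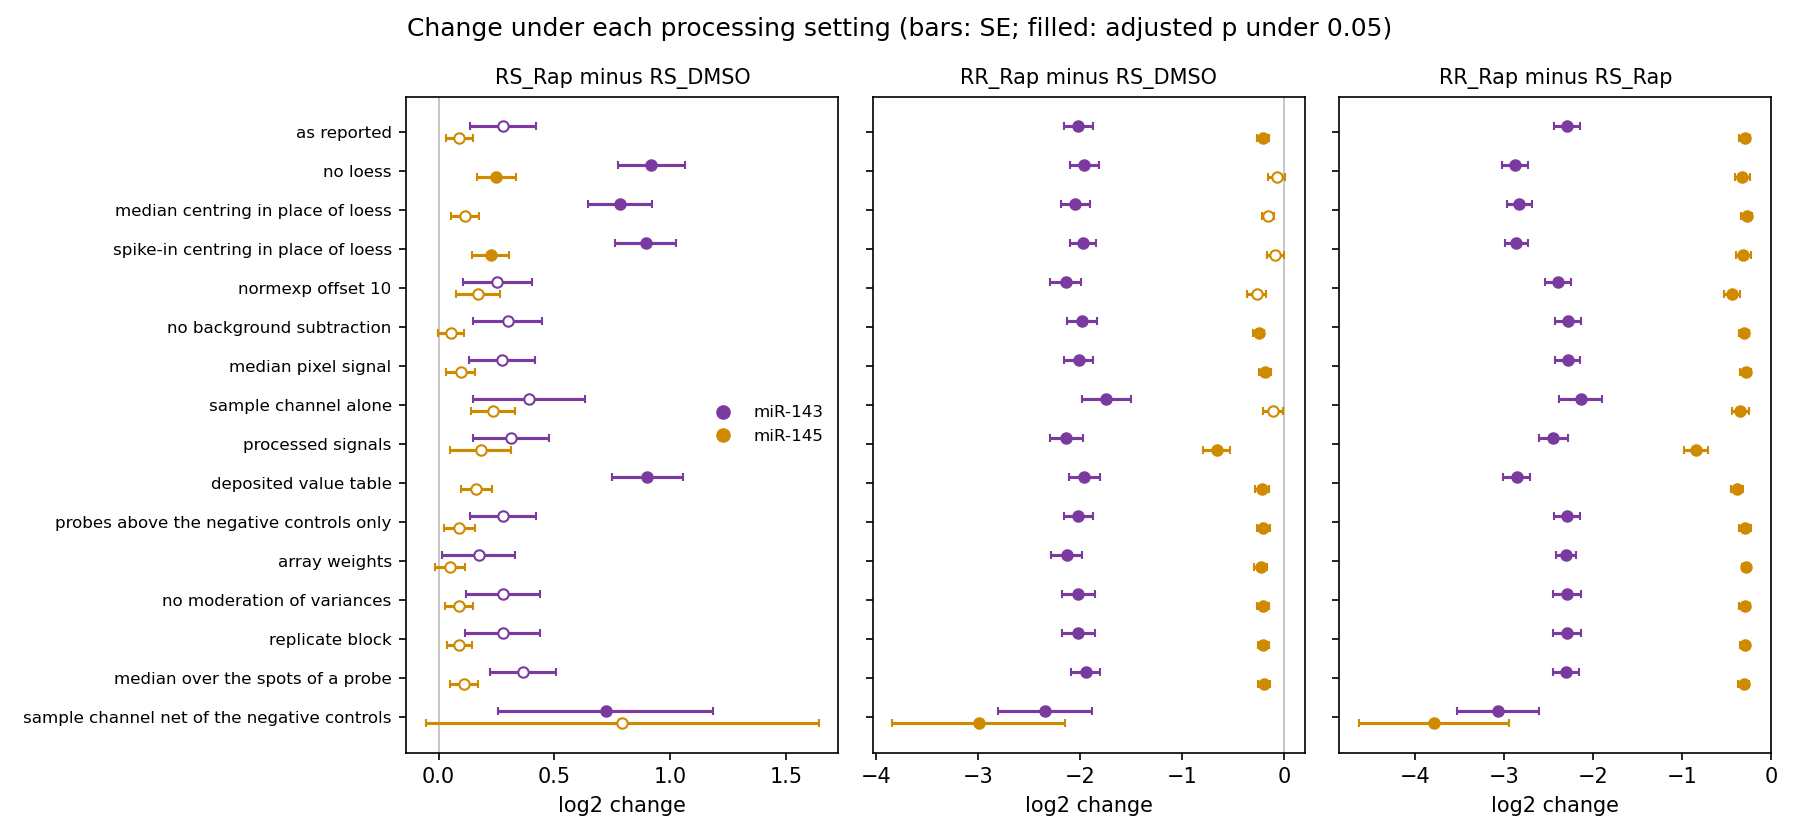
Log2 change of miR-143 and miR-145 in the 3 comparisons under each processing setting; bars are standard errors and filled points have an adjusted p under 0.05. miR-143 stays between -2.35 and -1.75 for RR_Rap minus RS_DMSO, whereas its 24 h change runs from 0.17 to 0.92 and miR-145 runs from -3.0 to -0.07 for RR_Rap minus RS_DMSO.

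The measured ratios of the neighbours changed by unequal amounts, with miR-145 near the negative controls throughout. The gap, the log2 ratio of miR-143 minus that of miR-145 on the same array, was 0.65, 0.64, 0.38 and 0.57 on RS_DMSO 1 to 4 and 0.68, 0.51, 0.98 and 0.81 on RS_Rap 1 to 4. It was -1.33, -0.996, -1.31 and -1.38 on RR_Rap 1 to 4. The sign was positive on all 8 sensitive arrays and negative on all 4 resistant arrays; since each ratio is relative to the pool, the sign does not rank the amounts of the pair.

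The gap was 1.81 lower on the log2 scale in RR_Rap than in RS_DMSO (change -1.81, standard error 0.12, 95% interval -2.08 to -1.54, exact permutation test p = 0.0286, 0.0429 adjusted over 3 comparisons) and changed by -2.0 from RS_Rap (exact p = 0.0286, adjusted 0.0429). With 0.33 of log2 signal above the controls in RS_DMSO and 0.46 in RS_Rap, miR-145 could not have kept pace with miR-143 in these values, so the gap describes the probes and does not measure how much more miR-143 fell. From RS_DMSO to RS_Rap it moved by 0.19 with a standard error of 0.12 (exact p = 0.2), which did not pass the test.

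The size of this gap depended on how the dim probe was read. With the median negative control taken off the Hy3 signal, an alternative chosen after seeing the data, miR-145 had 37.2, 12.7, 9.69 and 34.3 units left on RS_DMSO 1 to 4 and 1.33, 7.30, 6.38 and 0.625 units on RR_Rap 1 to 4. The corresponding values of miR-143 were 2030, 1623, 907 and 1821 units, and 427, 106.2, 450 and 399 units. On that scale the log2 change from RS_DMSO to RR_Rap was -2.35 for miR-143 (standard error 0.46) and -3.0 for miR-145 (standard error 0.85), both with exact p = 0.0286.

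The gap then changed by 0.65 with a standard error of 1.04 (95% interval -1.70 to 3.0, exact permutation test p = 0.629), the opposite sign with no call. Neither scale measured how the falls of the pair compare. The net values of miR-145 on the resistant arrays were smaller than the distance from the median to the highest negative control, which was 13.6 to 23.1 units there.

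The arm opposite miR-145 was also on the arrays. The probe for miR-145*, the strand usually degraded, did not pass the highest negative control on any of the 12 arrays, and its raw Hy3 signal was 98.4 to 126.9. Its log2 change was -0.08 from RS_DMSO to RR_Rap (adjusted p = 0.189 in limma) and -0.17 from RS_Rap to RR_Rap (adjusted p = 0.00757), a size of change that therefore occurred in a probe with no signal above the controls. No probe named miR-143* was found on the array.

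How often neighbours part was read from 47 pairs of miRNAs listed as members of 1 transcript or cluster, not all of them directly adjacent. A member with copies at several loci, such as miR-29b, listed with both miR-29a and miR-29c, is not resolved by locus. Of the 47 pairs, 32 had both members above the negative controls on at least 3 arrays of a group. miR-143 and miR-145 had the largest gap of the 32 pairs from RS_DMSO to RR_Rap, 1.81 against a median of 0.23, and from RS_Rap to RR_Rap, 2.0 against a median of 0.26. miR-145 met that condition through RS_Rap alone and was above the controls on 1 of 4 arrays of RS_DMSO and 0 of 4 of RR_Rap, so this place among the pairs rests on a member with little room to fall and is a description. At 24 h they were 13th, with 0.19 against a median of 0.16. The next pairs against RS_DMSO were miR-19b and miR-92a of the miR-17 cluster, with 1.40, and miR-221 and miR-222, with 1.17.

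In those pairs, too, the members moved the same way by different amounts. miR-19b rose by 2.05 and miR-92a by 0.65 on the log2 scale, miR-222 fell by 1.77 and miR-221 by 0.60, and all 4 passed the test. miR-29a fell by 1.49 and miR-29b by 0.57, with a gap of 0.92, and miR-93 rose by 1.44 and miR-25 by 0.60, with a gap of 0.84. The median Hy3 signal of miR-145 over the 12 arrays was 1.14 times the median negative control, and that of miR-92a 1.15 times. For the dimmer member it was 1.33 times in the pair of miR-93 and miR-25. It was 1.88 times in that of miR-221 and miR-222 and 3.07 times in that of miR-29a and miR-29b. Dim members also occurred in pairs with narrow gaps, as at 1.20 times for miR-127 and miR-136, with a gap of 0.02. Neither member of that pair changed much, at 0.03 and 0.05, so the pair does not show whether a dim member widens a gap.

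**Figure D4:**
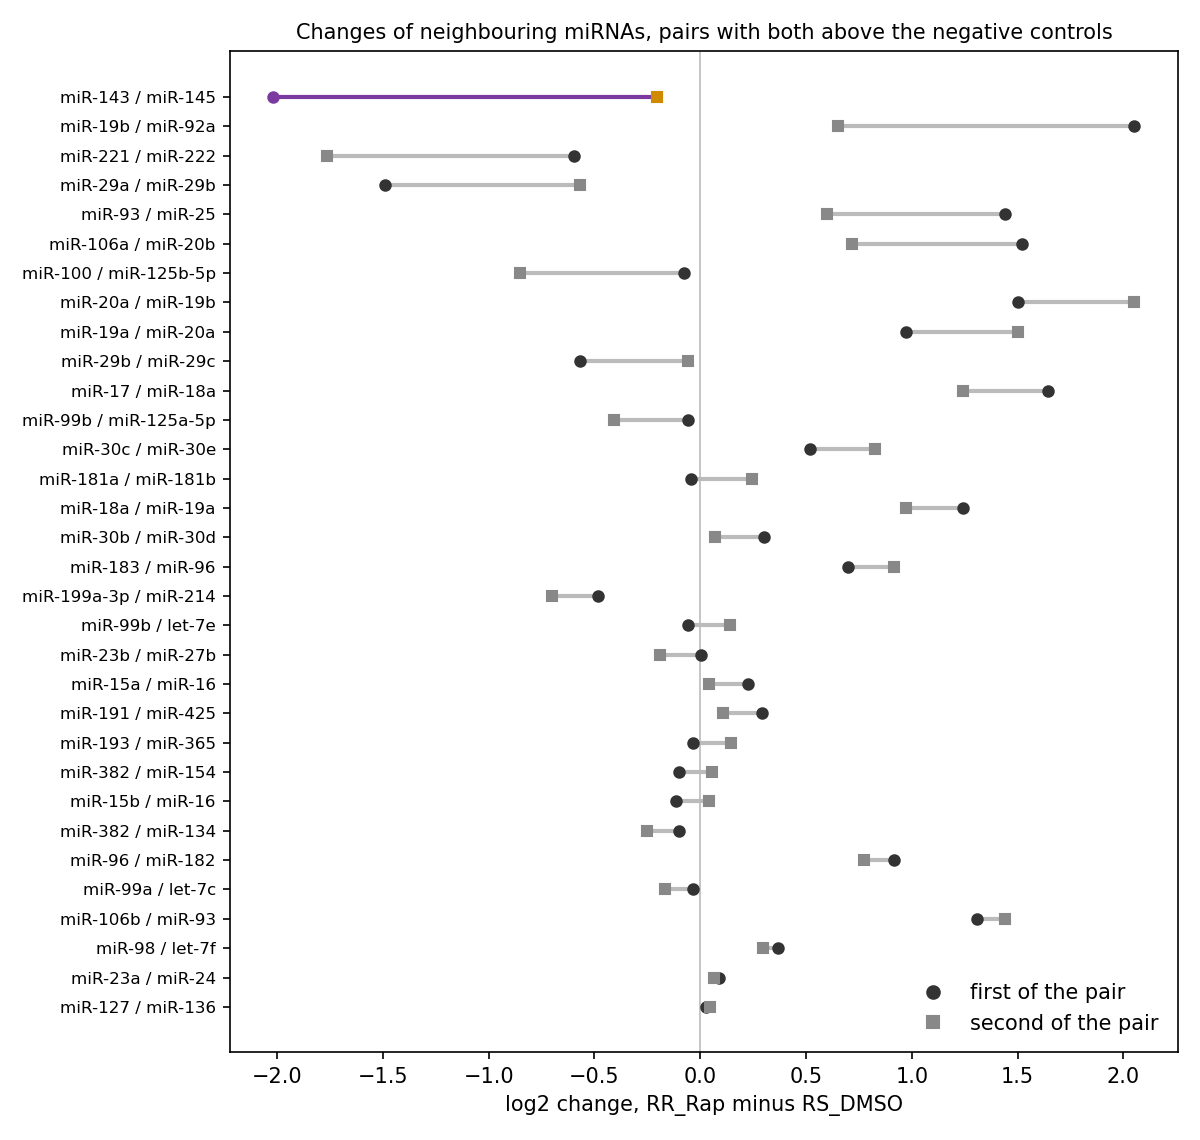
Log2 change from RS_DMSO to RR_Rap of both members of the 32 listed pairs of 1 transcript or cluster with both members above the negative controls, ordered by the gap between them. The pair of miR-143 (-2.02) and miR-145 (-0.20) has the widest gap, with miR-145 above the negative controls on 1 of 4 arrays of RS_DMSO and 0 of 4 of RR_Rap, followed by miR-19b (2.05) and miR-92a (0.65).

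Likeness of pattern was measured as the root mean square difference between log2 ratios over the 12 arrays, each probe centred on its own mean, among the other 217 probes above the negative controls. The 5 miRNAs nearest to miR-143 were miR-222 at 0.213, miR-21 at 0.274, miR-22 at 0.375, miR-667 at 0.408 and miR-29a at 0.417, and miR-145 was 29th at 0.914. Nearest to miR-145 was miR-29c at 0.0850, followed by miR-22*, miR-29b*, miR-99a and miR-324-5p, with miR-143 in place 213 of 217. The measure takes in the size of the changes. A probe with as little room above the controls as miR-145 therefore lies near probes that changed little and far from miR-143. The points share arrays, pool and scan order, so these are descriptions.

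The mature sequences of the miRNAs nearest to miR-143, and of the 1 nearest to miR-145, are shown to let their seeds be compared. They are given 5′ to 3′ from RefSeq (GRCm38.p6), with the seed, bases 2 to 8, in capitals; all 6 names looked up were matched.
miR-222 (3p arm): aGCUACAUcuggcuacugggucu
miR-21 (5p arm): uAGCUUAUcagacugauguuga
miR-22 (3p arm): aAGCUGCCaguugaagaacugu
miR-667 (3p arm): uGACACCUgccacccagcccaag
miR-29a (3p arm): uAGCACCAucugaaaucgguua
miR-29c (3p arm): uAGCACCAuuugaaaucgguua
They lie at chrX:19146901-19146923 (minus strand), chr11:86584120-86584141 (minus), chr11:75463772-75463793 (plus), chr12:109720061-109720083 (plus), chr6:31062673-31062694 (minus) and chr1:195037600-195037621 (plus), in the same order.

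The 5 nearest to miR-143 have 5 different seeds. miR-29a and miR-29c share the seed AGCACCA and differ by 1 base in 22, C10U, counted from the 5′ end. miR-29a was among the 5 nearest to miR-143, with a change of -1.49 from RS_DMSO to RR_Rap, and miR-29c was nearest to miR-145, with -0.06. The probe for miR-29c was dim, with a median Hy3 signal over all arrays of 1.23 times the median negative control. For the dimmer member in the pair of miR-29a and miR-29b it was 3.07 times. Like miR-145, miR-29c thus had little room to fall, and whether it fell as far as miR-29a cannot be read from these values. How far probes for such close sequences bind each other's target was not tested.

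The 5 nearest to miR-143 were picked by their values on the same arrays, so that they were low in the resistant line was fixed by the choice and their changes from RS_DMSO to RR_Rap are given as a description. miR-222, which represses the cell cycle inhibitor p27, changed by -1.77. miR-21, which represses the tumour suppressor Pdcd4, changed by -1.81, and miR-22 by -1.50. miR-667, from the imprinted Dlk1-Dio3 region, changed by -1.47. None of the 5 passed the test at 24 h, where they ranged from -0.08 to 0.49, and for miR-22 and miR-29a that value changed sign to 0.69 and 0.73 without loess.

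The pair was next set beside other miRNAs known from smooth muscle, in 2 lists made with earlier results of these data known. Of a list of miRNAs of differentiated smooth muscle, which holds miR-143 and miR-145 themselves, 9 of 10 were on the array, and from RS_DMSO to RR_Rap 3 were lower, 0 higher and 6 not called, with a median change of -0.08 against -0.01 over all probes. Of the 7 that are not the pair itself, 1 fell, beside 10.3% of all probes: miR-10a, a miRNA of the HoxB cluster, by 0.42 (adjusted p = 0.000115 in limma). From RS_Rap to RR_Rap 5 of the 9 were lower and 1 was higher, beside 13.7% and 15.1% of all probes. The lower ones were the pair, miR-10a, miR-1 and miR-145*, whose probe had no signal above the controls. Among them miR-1, which promotes muscle differentiation, was at -0.68 (adjusted p = 0.0230 in limma). The higher one, miR-204, rose by 0.14 (adjusted p = 0.00715). At 24 h 0 were called in limma, beside 3.36% of all probes, with 1 at an unadjusted p under 0.05. Without loess 5 were called higher, as were 117 of all 417 probes.

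Of 8 miRNAs tied to dividing or injured smooth muscle, 4 were lower and 1 was higher from RS_DMSO to RR_Rap, with a median of -0.30, beside 10.3% and 12.9% of all probes. The 4 were miR-21, miR-222, miR-221 and miR-146a, a repressor of Traf6 and Irak1 that changed by -0.73 (adjusted p = 0.000161 in limma), and the 1 that rose was miR-31, by 0.87 (adjusted p = 7.81e-05). From RS_Rap to RR_Rap 5 of the 8 were lower and 2 were higher, beside 13.7% and 15.1% of all probes. The median change was -0.48, against 0.03 over all probes and -0.17 in the list of differentiated smooth muscle. At 24 h 2 of the 8 rose, beside 1.68% of all probes: miR-146a by 0.73 (adjusted p = 0.00247 in limma) and miR-26a by 0.24 (adjusted p = 0.0310). Without loess 6 were called higher, beside the same 117 of 417.

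**Figure D5:**
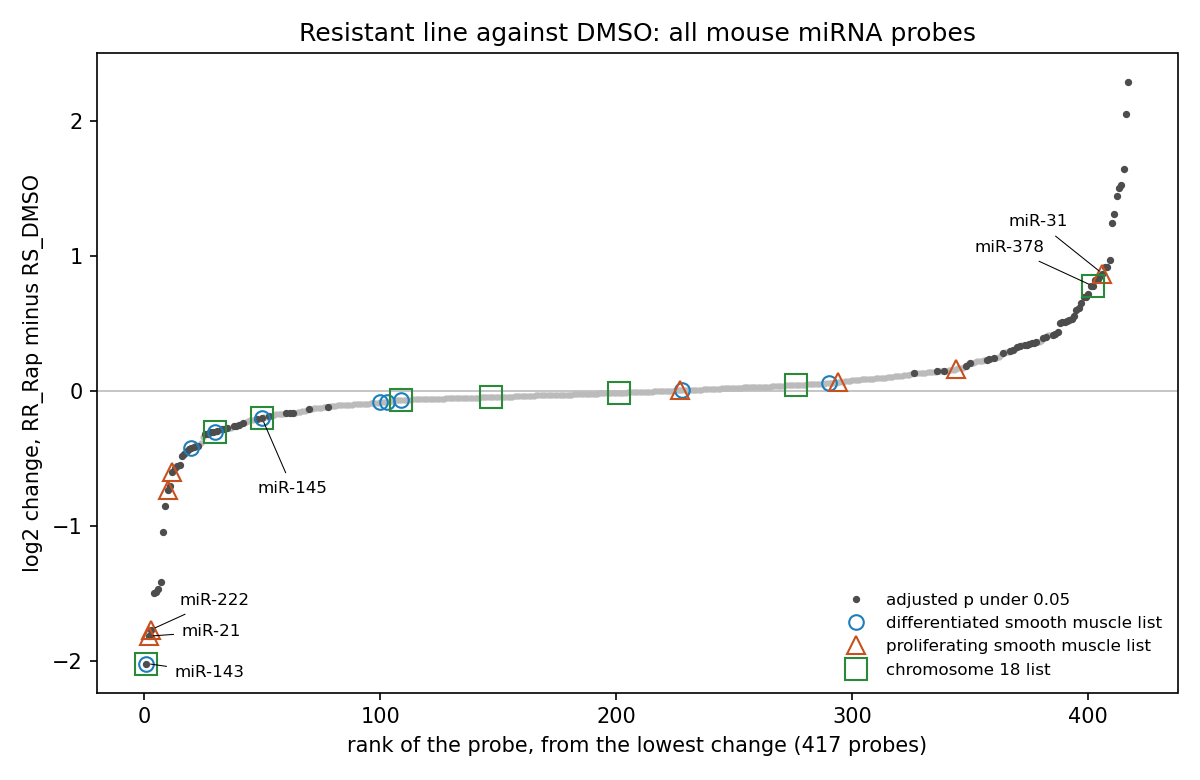
Log2 change from RS_DMSO to RR_Rap of all 417 mouse probes, ordered from the lowest, with the members of the smooth-muscle and chromosome 18 lists marked. miR-143 (-2.02) is at the lowest end beside miR-21 (-1.81) and miR-222 (-1.77), miR-145 (-0.20) is at place 50, and miR-31 and miR-378 are at the high end.

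Other miRNAs of chromosome 18 did not follow miR-143 as a group. Of 8 names listed for that chromosome, the pair included, 5 were above the negative controls. From RS_DMSO to RR_Rap 1 was higher and 2 were lower, beside 12.9% and 10.3% of all probes. The lower ones were miR-143 and miR-145. The higher one was miR-378, from an intron of the metabolic coactivator gene Ppargc1b, at 0.78 with a standard error of 0.15 (adjusted p = 0.00157 in limma). miR-187 was at 0.04 (adjusted p = 0.783) and miR-1, which also has a copy on another chromosome, at -0.30 (adjusted p = 0.335). The remaining 3, miR-378*, miR-122 and miR-133a, were not above the controls and had changes of -0.04, -0.01 and -0.07.

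The label of muscle-like cells and the presence of other cells were checked on marker miRNAs. Of 7 muscle-enriched miRNAs 2 were above the negative controls, miR-1 and miR-206, while miR-133a, miR-133b, miR-208, miR-486 and miR-499 were not. Of 7 miRNAs enriched in epithelium 0 were above them, as were 0 of 2 of endothelium and 0 of 1 of liver, against 2 of 6 of blood cells and 4 of 6 of neurons. Over all mouse probes 218 of 417 were above them, so such small counts do not settle which cells were present.

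The summed Hy3 signal of the 7 muscle-enriched miRNAs was 1170 to 1287 in RS_DMSO, 1127 to 1217 in RS_Rap and 868 to 997 in RR_Rap. Sums given here are of raw signals with no background taken off. The median negative control was 105.9 to 124 per probe on these arrays, so much of each sum was background. From RS_DMSO to RR_Rap 0 of the 7 were called in limma, with 2 at an unadjusted p under 0.05. From RS_Rap to RR_Rap 2 were lower, miR-1 (-0.68) and miR-206 (-0.61), beside 13.7% of all probes. In that comparison 1 was higher, miR-208 (0.41, not above the controls), beside 15.1%. The sum of the 6 neuronal ones was 852 to 1358 in RS_DMSO, 823 to 950 in RS_Rap and 778 to 827 in RR_Rap, the last 2 overlapping, and 3 of the 6 were called lower from RS_DMSO to RR_Rap, beside 10.3% of all probes. Of those 3, miR-124 and miR-137 were not above the negative controls, and miR-129-5p was. Their part in the change of miR-143 and miR-145 was not tested.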

How the data were processed

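The members and all lists and pairs were chosen with earlier results of these data known. Per the file headers, the deposited spot intensity values are means and medians of pixels in both channels with a local background, from Agilent Feature Extraction 9.5.3.1, not normalized; outlier flags (coded 0 or 1) come from the same files, as deposited. The deposited value table holds log2 values; set against raw log2 Hy3 over Hy5 of the same array, its columns had r from 0.975 to 0.998 and medians from 0.393 to 0.604, which puts the sample over the pool with no centring; the way spots were combined is not given in those files. All per-sample columns were used.

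Mean signals were background-corrected with normexp (offset 50), and ratios were normalized by loess with control spots at weight 0 in limma 3.58.1 (R 4.3.3). Unflagged spots of a probe were averaged; no spot of either miRNA carried an outlier flag. Changes of dim probes are made smaller by the offset. All contrasts came from 1 model of the 12 arrays (lmFit, eBayes), and p-values were adjusted by Benjamini and Hochberg's method over the 417 probes, with 0.05 as the threshold. The gap and raw signals were compared by exact permutation tests over arrays, adjusted over 3 comparisons. Being above the negative controls meant a median Hy3 signal over that of all 7 control probes on 3 or more of the 4 arrays in some group, which held for 218 probes. The number of arrays limits the precision.

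The miRNAs named were both members and the opposite strand, the 5 nearest to each, the called or lowest-p members of the smooth-muscle lists, all of the chromosome 18 list and the 5 pairs with the widest gap; list members outside these (miR-26a, miR-206 and other markers) were named after their values were seen. Same-numbered arrays did not deviate together: the 12 correlations of deviations from group means ran from -0.114 to 0.151, with 2 over 0.1, so the numbers were not taken as pairs. Alternatives covered background, centring, signal column, the value table, filter, array weights, a replicate block and each array left out. The fit was tested on simulated data.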

Additional observations from a re-analysis of the deposited data

Results flagged for a closer look

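RR_Rap 2 lay far from the other 3 resistant arrays for miR-143, with a log2 ratio of -1.10, a Hy3 signal of 222.5 and a Hy5 signal of 549. Of 30 groups of 4 arrays examined, 3 were singled out in this way, all on this array, and chance does so for about 1 group in 20. The array was dimmer as a whole: over 61 bright probes its Hy3 signal was a median 37.2% and its Hy5 signal a median 34.5% of the mean of the other resistant arrays, beside 41.0% and 29.5% for miR-143. Without RR_Rap 2 and RS_DMSO 3 the gap between the pair changed by -1.96 from RS_DMSO and -2.09 from RS_Rap.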

How the results depend on the processing

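The fall of miR-143 in the resistant line kept its call under all 16 settings (-2.35 to -1.75 against RS_DMSO, -3.07 to -2.14 against RS_Rap) and in all 12 fits without 1 array (-2.12 to -1.98 and -2.41 to -2.19). The call of miR-145 against RS_Rap also held in all of these (-3.79 to -0.27; -0.33 to -0.25). Against RS_DMSO miR-145 lost its call with no loess (-0.072), median centring (-0.16), spike-in centring (-0.084), an offset of 10 (-0.27) and Hy3 alone (-0.11), and ran from -0.24 to -0.17 without 1 array.

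At 24 h miR-143 passed with no loess (0.92), median centring (0.78), spike-in centring (0.89), the deposited value table (0.90) and net of the negative controls (0.72; exact permutation p = 0.0286), and ran from 0.17 to 0.39 without 1 array, never called. miR-145 passed with no loess (0.25) and spike-in centring (0.22), and ran from 0.05 to 0.12 without 1 array. The gap at 24 h passed at 0.67 with no loess and at 0.74 in the value table, ran from 0.11 to 0.26 without 1 array, and passed without RS_Rap 2. Median and spike-in centring shift both ratios of an array alike, so they leave the gap as it is with no loess. The cause was not tested.

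Against RS_DMSO and RS_Rap the gap kept its call without any 1 array (-1.90 to -1.77 and -2.09 to -1.92). With the replicate number as a block it was -1.81 and -2.0 with an adjusted exact p of 0.188, since 4 pairs cannot pass; no call of either miRNA changed under the block. Without RR_Rap 2 and RS_DMSO 3 it was -1.96 and -2.09 (adjusted exact permutation p = 0.150 and 0.0857), where 3 arrays a group cannot pass against RS_DMSO. Net of the negative controls it turned to 0.65 and 0.72 with no call.

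The share of the 417 probes called at 24 h, 3.36%, was 28.3% with no loess, 29.5% with median centring, 30.7% with spike-in centring, 11.8% with no background subtraction, 0.480% with Hy3 alone, 8.39% with processed signals, 26.6% in the value table, 7.91% with the median over spots, 6.24% without RR_Rap 2 and RS_DMSO 3, and 0.959% to 8.15% without 1 array. Before loess 117 of 118 called probes were higher, around a median change of 0.11 over all probes. Against RS_DMSO 23.3% became 13.2% with Hy3 alone (18.5% to 25.7% without 1 array), and against RS_Rap 28.8% became 12.9% with Hy3 alone, 59.0% with median centring and 43.9% with array weights (23.3% to 34.8% without 1 array). At 24 h miR-22 turned to 0.69, 0.56, 0.67 and 0.68, and miR-29a to 0.73, 0.60, 0.71 and 0.72, with no loess, median centring, spike-in centring and the value table. Against RS_Rap miR-204 turned to -0.017 in the value table and miR-133a to 0.13 with median centring. The slide or scan run as a block was not run, since each run held 1 group. The distance of miR-145 from the negative controls limits its values. The settings net of the negative controls, with the median over spots and without both RR_Rap 2 and RS_DMSO 3 were chosen after seeing the data.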
